A study of Rattus norvegicus with 24 samples.

Results

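The miR-23/27/24 clusters are a pair of paralogous microRNA (miRNA) clusters, and 5 of their mature strands, miR-23a, miR-23b, miR-27a, miR-27b and miR-24, were followed in blood cells of arthritic and healthy rats. The 5 were taken by their exact names on the array (rno-miR-23a, rno-miR-23b, rno-miR-27a, rno-miR-27b and rno-miR-24), out of 677 rat miRNAs, and this rule uses no measured value. RNA of peripheral blood mononuclear cells (PBMC, the lymphocytes and monocytes of blood) from female Wistar rats had been hybridised to 24 one-colour Agilent miRNA arrays, 2 in each of 12 groups. The animals' age was not given in the labels. Collagen-induced arthritis (CIA), a model of rheumatoid arthritis raised by immunising rats with collagen, was present in all groups but the healthy NORA animals.

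Before any therapy there were NORA_T0 (healthy) and RA_T0 (untreated arthritis). At 1 h and at 34 days there were healthy animals (NORA) and 4 arthritic arms: AP, mechanical stimulation with a twirled subcutaneous needle; MTX, the anti-folate drug methotrexate; PLA, sterile saline as placebo for MTX; and ANE, isoflurane in place of the ether used at sampling in AP, MTX and PLA. One label line of NORA_34d names 1 h while its title names 34 days, and 34 days was used. Blood was drawn at sacrifice, so the time points are different animals. Whether an array held blood of 1 animal or of several was not stated.

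MiRNAs are short RNAs that pair through their seed, bases 2 to 8 from the 5′ end, with messenger RNAs and lower their output. The miR-23a and miR-23b clusters arose by duplication and each is made as 1 transcript that is cut into a miR-23, a miR-27 and a miR-24. In blood-forming cells the miR-23a cluster is known as a target of the transcription factor PU.1 that favours myeloid over lymphoid fate, and miR-24 and miR-27 are known to restrain the Th2 programme of T cells, in which IL-4 and GATA3 act.

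The mature strands are shown with their seeds in capitals, because the paralogues share a seed and differ at 1 base outside it, and because miR-24 is the same from both clusters. They are RefSeq sequences of the rat genome GRCr8.
miR-23a: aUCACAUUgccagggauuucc
miR-23b: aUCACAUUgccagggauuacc
miR-27a: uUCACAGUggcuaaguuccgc
miR-27b: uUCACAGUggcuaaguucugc
miR-24: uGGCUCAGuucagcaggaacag
miR-24-2*: gUGCCUACugagcugaaacagu
miR-24-1*: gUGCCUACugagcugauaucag
Counted from 1 at the 5′ end, miR-23a and miR-23b differ by U19A and miR-27a and miR-27b by C19U. The miR-23 and miR-27 seeds differ from each other at 1 of 7 bases, U7G, while the miR-24 seed matched neither at any position. Of 693 mature rat miRNAs in the RefSeq table, 2 held the miR-23 seed, 2 the miR-27 seed and 1 the miR-24 seed, in each case the strands shown here.

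The miR-23a cluster (Mir23a, Mir27a and Mir24-2) lies at chr19:40859455-40859843 on the minus strand of GRCr8, a stretch of 389 bases between annotated genes, with Zswim4 as a neighbour. The miR-23b cluster (Mir23b, Mir27b and Mir24-1) lies at chr17:1818669-1819482 on the minus strand, 814 bases within the span of Aopep. Both loci gave 1 and the same miR-24 sequence, so the miR-24 signal is the sum of both clusters. The passenger strand miR-24-2*, cut from the other side of the Mir24-2 hairpin, comes from the miR-23a cluster only. It shares its first 16 bases with miR-24-1* of the miR-23b cluster.

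All 5 members were detected on all 24 arrays by the scanner software. Of the 6 passenger strands, miR-24-2* was detected on all 24 arrays, while miR-23a*, miR-23b*, miR-27a*, miR-27b* and miR-24-1* were detected on none. Each member had 2 probes of 10 spots each, and no spot on any array was saturated. The probe sequences were not used here, and cross-hybridisation between strands that differ at 1 base was not tested.

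Levels are scaled log2 signals, in which each array's 75th percentile over 132 miRNAs detected on all arrays was made equal, so 1 unit is a 2-fold difference. They compare groups for 1 miRNA and cannot rank miRNAs against each other. A difference is named a call where limma's adjusted p, over 210 tested miRNAs, was under 0.05. In bulk RNA, fewer cells of a type and less RNA per cell cannot be told apart.

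MiR-23a (rno-miR-23a), after which its cluster is named, ran from 11.91 to 13.12 over the 24 arrays with a median of 12.28. The 2 arrays of AP_34d read 13.12 and 12.54, those of ANE_1h 12.77 and 12.41, and those of RA_T0 11.91 and 12.09. AP_34d was the highest of the 12 group means and RA_T0 the lowest, a span of 0.83 or 1.78-fold. The SD within groups was 0.26, and none of the 11 gaps between neighbouring group means exceeded it, so the order between these ends is not resolved.

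MiR-24 (rno-miR-24), known to target the histone H2AX and the death gene BIM, followed the same order at both ends. Its arrays read 12.01 and 11.51 in AP_34d, 11.81 and 11.38 in ANE_1h, and 10.91 and 11.04 in RA_T0, with a span of 0.78 or 1.72-fold between the highest and lowest group means. None of its 11 neighbouring gaps exceeded the SD within groups of 0.24.

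MiR-27a (rno-miR-27a), whose known targets include the lymphoid regulators RUNX1 and FOXO1, read 12.35 and 11.88 in AP_34d and 11.98 and 11.72 in ANE_1h. RA_T0, at 11.41 on both arrays, was again the lowest group, 0.71 below AP_34d or 1.63-fold. Only the step from AP_34d to ANE_1h, 0.27, was larger than its SD within groups of 0.21.

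The members coded only in the miR-23b cluster spread less over the arrays. MiR-23b (rno-miR-23b) stayed between 9.18 and 9.80 on all arrays, and its group means spanned 0.41. Its arrays read 9.80 and 9.42 in AP_34d, the highest group here too. They read 9.38 and 9.35 in RA_T0, and 9.23 and 9.18 in AP_1h, the lowest group. MiR-27b (rno-miR-27b) stayed between 8.19 and 8.54 on 23 arrays, and the first AP_1h array alone read 7.68 beside 8.32 for its replicate. Over the 24 arrays the SD was 0.13 for miR-23b and 0.16 for miR-27b, against 0.26 to 0.29 for miR-23a, miR-27a and miR-24. The median SD of the 132 miRNAs detected on all arrays was 0.31, and 2.27% of them varied less than miR-23b and 9.85% less than miR-27b.

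**Figure D1:**
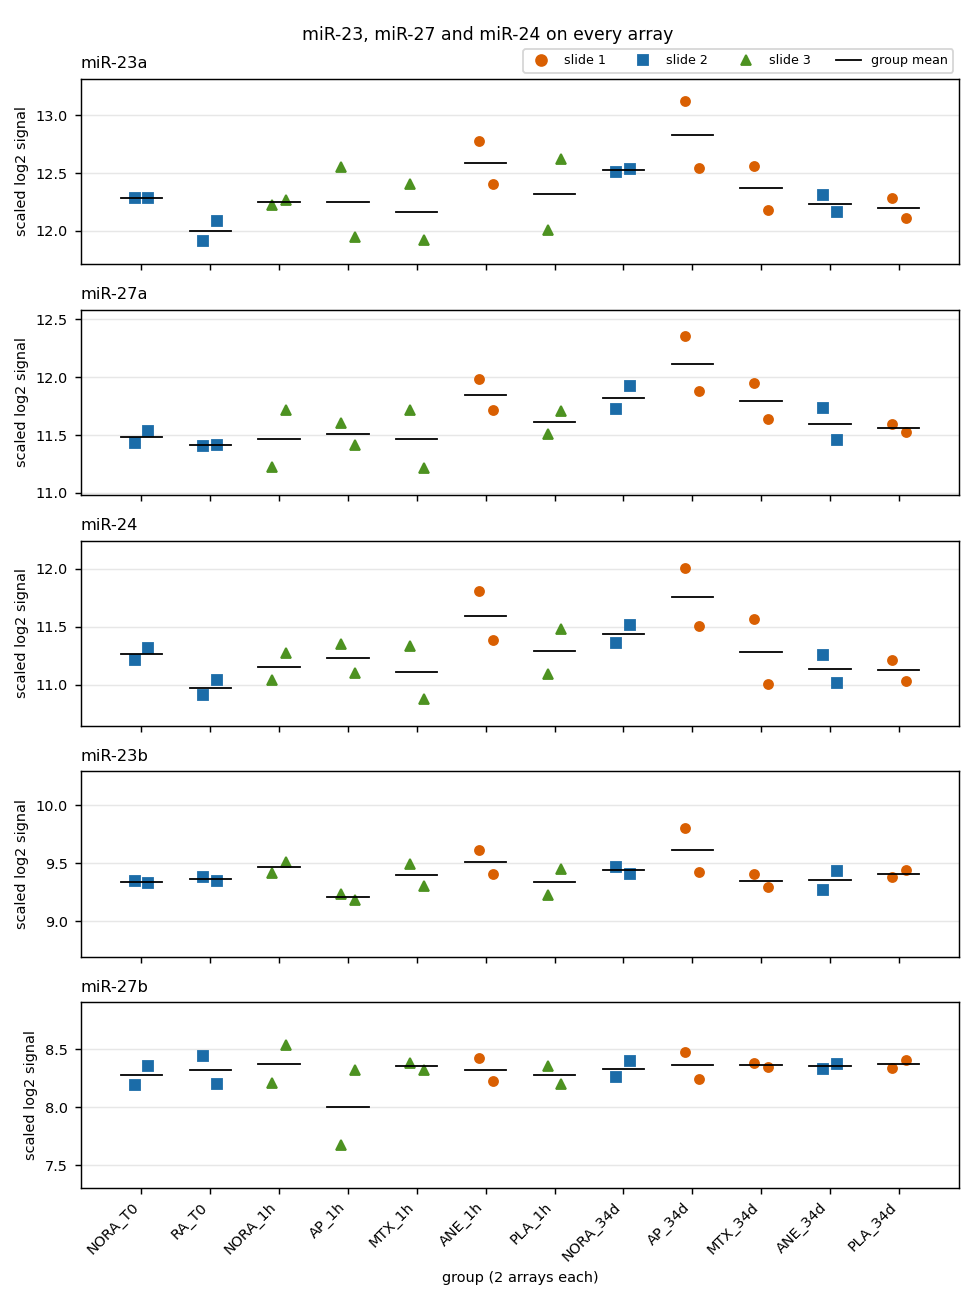
Scaled log2 signal of the 5 members (panels) in the 12 groups (x axis), with 1 point per array, coloured and shaped by the slide that carried it, and a bar at each group mean (n = 2). MiR-23a, miR-27a and miR-24 share their highest group, AP_34d, and their lowest, RA_T0. AP_34d is the highest group of miR-23b too. MiR-23b and miR-27b spread less over the arrays, apart from 1 AP_1h array of miR-27b at 7.68.

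A test for any difference among the 12 groups called none of the 5 members, with adjusted p from 0.392 for miR-27a to 0.857 for miR-27b. It called 5 of 210 miRNAs, 2.38%. Pairwise comparisons address each therapy and time separately, and only 1 of them gave a call among the members.

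The question of how blood cells differ after 34 days of stimulation from those of untreated arthritis is put by AP_34d against RA_T0. MiR-23a rose by 0.83 (SE 0.26, 95% CI 0.27 to 1.40), with a limma adjusted p of 0.0407. MiR-24 rose by 0.78 (SE 0.24, 95% CI 0.27 to 1.30) and miR-27a by 0.71 (SE 0.22, 95% CI 0.24 to 1.18), both with an adjusted p of 0.0406. For the miR-23b cluster, the difference of miR-23b was 0.25 (95% CI -0.06 to 0.55, adjusted p 0.176) and that of miR-27b 0.04 (95% CI -0.37 to 0.45, adjusted p 0.924). Thus 3 of 5 members were called higher, where 15.7% of all tested miRNAs were called higher and 19% in either direction.

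The 2 arrays of each group did not overlap for 4 of 5 members, miR-27b being the exception, and 68.6% of the tested miRNAs likewise did not overlap. The median difference was 0.71 over the members and 0.16 over all tested miRNAs. No member reached a 2-fold difference with an unadjusted p under 0.05, a threshold that 25.3% of the 146 miRNAs detected on all 4 arrays passed.

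The calls rest on single arrays and on the scaling. Without the first AP_34d array the differences were 0.54, 0.53 and 0.47 for miR-23a, miR-24 and miR-27a and 0 members were called. Without either RA_T0 array 0 members were called too, at differences of 0.71 to 0.92 for these 3, and without the second AP_34d array 4 were called, miR-23b included. With the 5 members left out of the scaling set the 3 differences were 0.79 to 0.92 at an adjusted p of 0.0558. The 3 kept their sign under every scaling and background correction run, at 0.41 to 2.03, while miR-27b lay between -0.16 and -0.02 under 4 of them.

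Both probes of miR-23a, miR-27a, miR-24 and miR-23b gave a difference of the same sign, while those of miR-27b lay on either side of 0. For AP_34d against RA_T0 the 2 probes differed by 0.97 and 0.79 for miR-23a, by 0.68 and 0.72 for miR-27a, and by 0.96 and 0.66 for miR-24. They gave 0.20 and 0.26 for miR-23b and -0.02 and 0.06 for miR-27b. The probes of the 3 called members thus lay above every probe of the miR-23b cluster members.

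**Figure D2:**
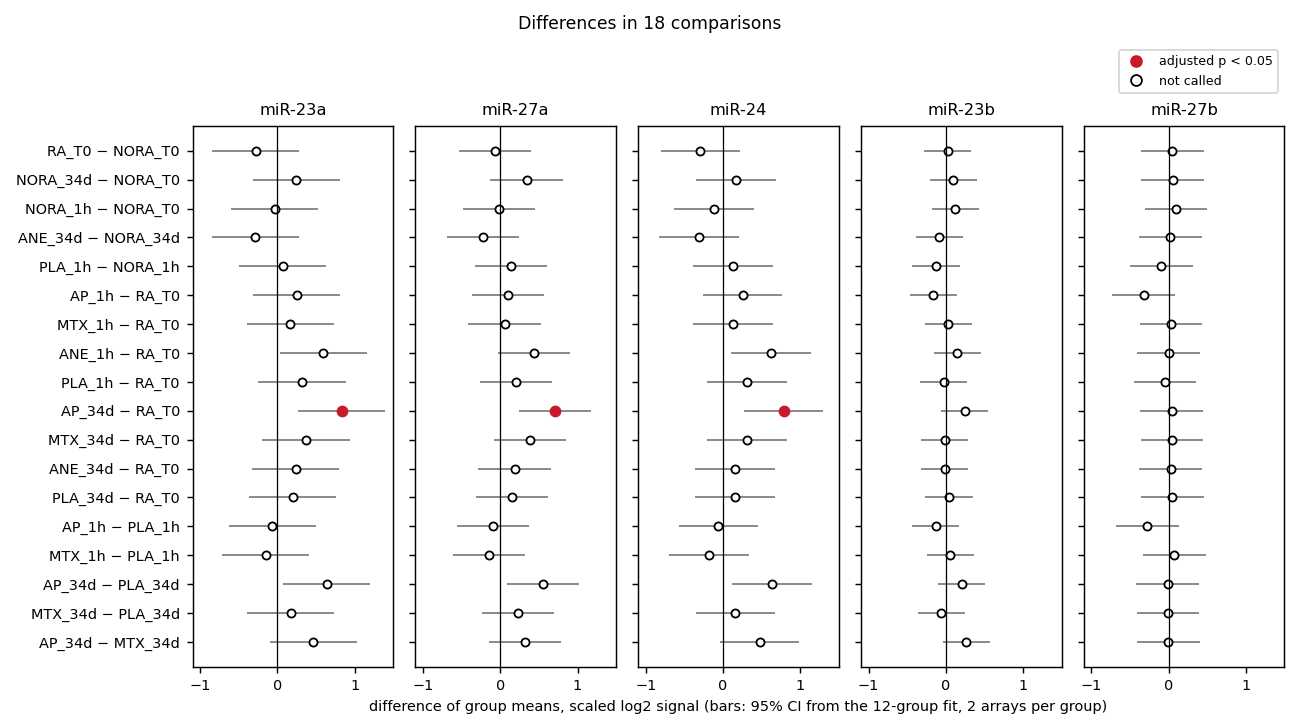
Difference of group means in scaled log2 signal (x axis) for the 5 members (panels) in 18 comparisons of groups (y axis, first minus second), with 95% confidence intervals from the fit of 12 groups with 2 arrays each and filled red points where the adjusted p was under 0.05. The only red points are miR-23a, miR-27a and miR-24 in AP_34d minus RA_T0. The intervals of miR-23b and of miR-27b include 0 in every comparison.

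AP_34d and RA_T0 lay on different slides, and since each group lay on 1 slide the slide and the group cannot be told apart in that comparison. PLA_34d shared the slide of AP_34d and the duration of arthritis. There miR-23a read 12.28 and 12.11, miR-24 11.22 and 11.03, and miR-27a 11.60 and 11.53, all below both AP_34d arrays.

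Against PLA_34d, AP_34d differed by 0.64 for miR-23a (95% CI 0.07 to 1.20, adjusted p 0.0873), 0.63 for miR-24 (95% CI 0.12 to 1.15, adjusted p 0.0765) and 0.55 for miR-27a (95% CI 0.08 to 1.02, adjusted p 0.0832). MiR-23b differed by 0.21 (adjusted p 0.268) and miR-27b by -0.01 (adjusted p 1). By limma's adjusted p, 0 of the 210 miRNAs were called here, 0%, while 84 of them, 40%, had an unadjusted p under 0.05, among them 3 of the members. The groups did not overlap for 3 of 5 members and for 71% of the tested miRNAs. Without the second AP_34d array 4 members were called, and without any one of the other 3 arrays 0.

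MiR-24-2*, whose only source is the miR-23a cluster, can be set beside these. It read 5.74 and 5.25 in AP_34d, 4.58 and 4.61 in RA_T0, and 4.68 and 4.83 in PLA_34d, so AP_34d lay above both. The difference was 0.90 from RA_T0 (95% CI 0.22 to 1.59, adjusted p 0.0526) and 0.74 from PLA_34d (95% CI 0.05 to 1.42, adjusted p 0.103), neither of them a call. The MTX_34d arrays read 5.64 and 5.18, 1 within the range of AP_34d and 1 below it. MTX_34d differed from RA_T0 by 0.82 (95% CI 0.14 to 1.51, limma adjusted p 0.658), which was not a call and was close to the difference of AP_34d.

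The log2 ratio of a paralogue pair within 1 array cancels a scale factor and compares the clusters directly. Given as its distance from the median of the 24 arrays, the ratio of miR-23a to miR-23b was 0.40 and 0.20 in AP_34d, -0.39 and -0.18 in RA_T0, and -0.01 and -0.25 in PLA_34d. That of miR-27a to miR-27b was 0.59 and 0.36 in AP_34d, -0.32 and -0.07 in RA_T0, and -0.02 and -0.16 in PLA_34d. AP_34d ranked first of the 12 groups and RA_T0 last for both pairs. For miR-27 the last place is not resolved, with group means of -0.19 in RA_T0, -0.18 in NORA_1h and -0.17 in MTX_1h.

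The ratio of miR-23a to miR-23b was higher by 0.58 in AP_34d than in RA_T0 and by 0.43 than in PLA_34d. For miR-27a to miR-27b the differences were 0.67 and 0.56. The groups did not overlap in any of these 4, and the exact two-sided permutation p was 0.333 for each, the smallest that 2 arrays against 2 allow. The same test was run on other pairs of groups. ANE_1h and MTX_34d also did not overlap RA_T0 for either ratio, at a permutation p of 0.333 each. They were higher by 0.44 and 0.39 for miR-23 and by 0.44 and 0.34 for miR-27. AP_1h did not overlap RA_T0, nor RA_T0 NORA_T0, for the miR-23 ratio only. PLA_34d and ANE_34d overlapped RA_T0 for both ratios, and AP_1h overlapped PLA_1h. No share of non-overlap over other pairs of miRNAs was computed.

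**Figure D3:**
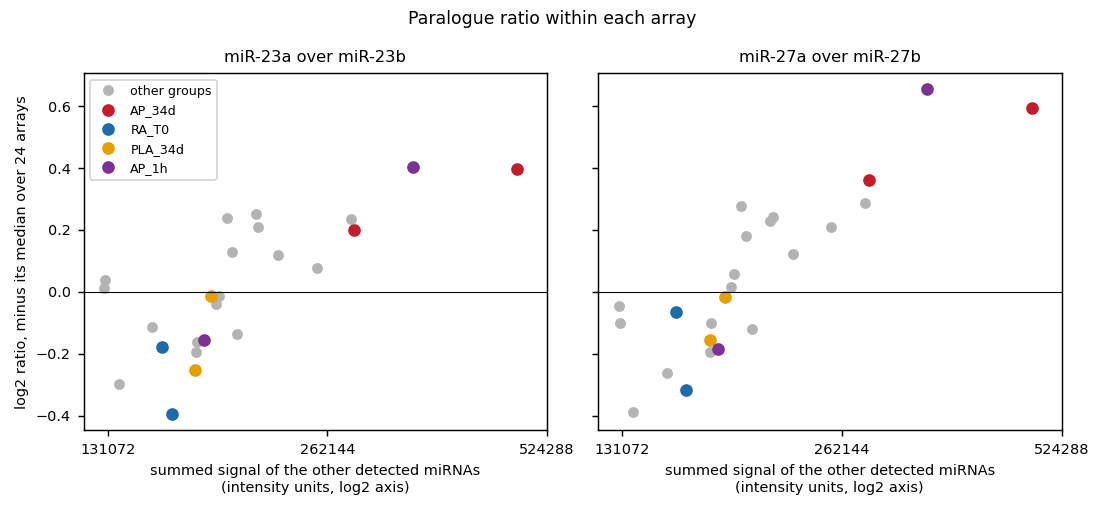
Log2 ratio of miR-23a to miR-23b (left) and of miR-27a to miR-27b (right) within each of 24 arrays, minus its median (y axis), against the summed signal of all other detected miRNAs on that array (x axis, intensity units on a log2 axis), with 1 point per array and 4 groups coloured. Both ratios are higher on brighter arrays, and the first AP_34d and first AP_1h arrays lie at the upper right of each panel.

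The paralogue ratios moved with the brightness of the array. The summed signal of all detected miRNAs other than the members was 477105 and 285421 in AP_34d, 160384 and 155430 in RA_T0, and 181545 and 172627 in PLA_34d. Over the 24 arrays its log2 was related to the miR-23 ratio with a Pearson r of 0.74 (permutation p 3e-05) and a Spearman rho of 0.74 (permutation p 5e-05). For the miR-27 ratio r was 0.86 and rho 0.83 (permutation p 1e-05 for both, the smallest that 100000 permutations can give). The permutations shuffled all 24 arrays freely, without regard to group or slide. Arrays of 1 group or slide may not be independent, so these p-values can be too small.

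These were the 2 relations computed, and the adjusted p-values were at most 5e-05. Without the 2 arrays farthest in brightness, the first of AP_34d and the first of AP_1h, r was 0.61 for miR-23 and 0.78 for miR-27. Within slides r was 0.80, 0.39 and 0.89 for miR-23 and 0.90, 0.61 and 0.96 for miR-27 on slides 1, 2 and 3, each of 8 arrays. The part of array brightness in the differences between groups was not tested.

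Marker miRNAs of cell types were also compared between these groups. The summed scaled signal of 3 lymphocyte miRNAs (miR-150, miR-342-3p and miR-181a) was 2041 and 7463 in AP_34d, 13781 to 15011 in RA_T0 and 12459 to 12869 in PLA_34d, and 0 of the 3 were called against either. The myeloid miR-223 read 8678 to 12161 in AP_34d, 4918 to 6222 in RA_T0 and 7140 to 8403 in PLA_34d, and was called higher against RA_T0 by 0.89 (adjusted p 0.0383). The sums of the leukocyte miR-142-3p and miR-142-5p overlapped, at 11502 to 14559 in AP_34d, 9857 to 14776 in RA_T0 and 12007 to 13995 in PLA_34d. Taken alone, miR-142-5p did not overlap between AP_34d and PLA_34d, with a difference of -0.40 (limma adjusted p 0.451). Between these 2 groups 71% of the tested miRNAs did not overlap either.

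Erythroid miR-451 and miR-144 summed to 4663 to 8725 in AP_34d, which overlapped RA_T0 at 4306 to 27062 but lay below PLA_34d at 17699 to 18812, and 0 of the 2 were called against either. Of 3 platelet miRNAs, miR-126* and miR-199a-3p were each detected on 2 of 24 arrays, and the 3 together summed from 104.9 to 191.7 in AP_34d, from 59.3 to 67.0 in RA_T0 and from 40.3 to 83.4 in PLA_34d. The liver miRNA miR-122 was detected on 9 arrays and lay at 2.09 to 6.85 in these 3 groups, near or under the floor of 5.76. The part of cell mixture in the members' differences was not tested.

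Among 14 miRNAs listed as regulators of leukocytes, 13 were on the array and tested. In AP_34d against RA_T0, 3 of the 13 were called higher and 0 lower, where 15.7% of all tested miRNAs were called higher and 3.33% lower, so the share of the list called higher is near that of all miRNAs. The median difference of the 13 was -0.19. The 3 called were miR-17-5p (0.86) and miR-20a (0.82), both of the miR-17 cluster, which promotes lymphocyte survival, and miR-223 (0.89). Against PLA_34d 0 of the 13 and 0% of all miRNAs were called, at a median of -0.09.

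For miR-23a, miR-24 and miR-27a, the group means of the other arthritic arms at 34 days stood between those of AP_34d and RA_T0. MTX_34d read 12.56 and 12.18 for miR-23a and 11.95 and 11.64 for miR-27a, and miR-24 had a mean of 11.29 ± 0.40 (SD, n = 2). For all 3, its first array reached the level of the second AP_34d array and its second did not. Against RA_T0 it differed by 0.37 for miR-23a, 0.39 for miR-27a and 0.31 for miR-24, each with an adjusted p of 0.790, and 0 members and 0% of miRNAs were called. AP_34d exceeded MTX_34d by 0.46 for miR-23a, 0.47 for miR-24 and 0.32 for miR-27a (adjusted p 0.339, 0.309 and 0.401), again with 0 members and 0% called.

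PLA_34d and ANE_34d lay close to RA_T0. Over the 5 members PLA_34d differed from it by 0.04 to 0.20 and ANE_34d by -0.01 to 0.24, with 0 members and 0% of all miRNAs called in both. MTX_34d differed from PLA_34d by -0.06 to 0.23, with 0 members and 0% called. For miR-23a the 95% intervals of the differences from RA_T0 reach 0.80 for ANE_34d and 0.76 for PLA_34d. The difference of AP_34d from RA_T0, 0.83, lies just above both. Differences nearly as large were thus within what 2 arrays leave possible.

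ANE_1h was the second highest group for miR-23a, miR-23b, miR-27a and miR-24. Against RA_T0 it differed by 0.59 for miR-23a (95% CI 0.03 to 1.16, adjusted p 0.263), 0.62 for miR-24 (95% CI 0.10 to 1.14, adjusted p 0.263) and 0.44 for miR-27a (95% CI -0.03 to 0.91, adjusted p 0.267). MiR-23b differed by 0.15 (adjusted p 0.513) and miR-27b by less than 0.01 (adjusted p 1). None of the members was called, where 0.476% of all miRNAs were, and 2 had an unadjusted p under 0.05, as did 18.1% of all miRNAs.

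The ANE_1h arrays did not overlap RA_T0 for 4 of 5 members, miR-27b excepted, and for 55.2% of all miRNAs. The 2 groups lay on different slides. ANE_1h shared its slide with AP_34d, and across slides the median level of miR-23a was 12.47, 12.28 and 12.25 on slides 1, 2 and 3. In ANE_1h the lymphocyte miRNAs summed to 6185 to 6934, while miR-223 read 10149 to 13020 and liver miR-122 read 43.1 and 497.1, and their part in the differences was not tested.

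The other arms at 1 h gave no call among the members. Against PLA_1h, on the same slide, AP_1h lay at -0.28 to -0.06 over the 5 members, with adjusted p from 0.696 to 0.970, and 0 members were called where 0.952% of all miRNAs were. MTX_1h differed from PLA_1h by -0.18 to 0.08 over the members, with 0 members and 0% called. Replicates of these groups were wide apart, at 12.55 and 11.95 for miR-23a in AP_1h, 12.40 and 11.92 in MTX_1h, and 12.01 and 12.62 in PLA_1h.

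Against RA_T0 the members differed by -0.32 to 0.25 in AP_1h, where 0% of all miRNAs were called. They differed by 0.03 to 0.16 in MTX_1h and by -0.05 to 0.32 in PLA_1h, where 1.43% and 0.952% of all miRNAs were called, with 0 members in each of the 3. MiR-27b in AP_1h had the widest, -0.32 (95% CI -0.73 to 0.08, adjusted p 0.455). It rests on the first AP_1h array at 7.68: without that array the difference was 0.00073, and without its replicate -0.65 with an adjusted p of 0.0260. That array had the second largest summed signal of the 24.

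Arthritis before therapy was set against health by RA_T0 and NORA_T0, which shared a slide. MiR-23a read 11.91 and 12.09 in RA_T0 and 12.28 and 12.29 in NORA_T0, and miR-24 read 10.91 and 11.04 against 11.21 and 11.32. The differences were -0.28 for miR-23a (95% CI -0.85 to 0.28) and -0.29 for miR-24 (95% CI -0.81 to 0.22), both with an adjusted p of 0.938. MiR-27a, miR-23b and miR-27b differed by -0.07, 0.03 and 0.05. No member was called, where 0.952% of miRNAs were, and the groups did not overlap for 3 members and for 58.6% of all miRNAs.

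Later contrasts of arthritic and healthy animals were as small. ANE_34d differed from NORA_34d, on the same slide, by -0.31 for miR-24 (95% CI -0.82 to 0.21, adjusted p 1) and by -0.29 to 0.02 for the others, with 0 members and 0% called. PLA_1h differed from NORA_1h by -0.13 to 0.14, with 0 members and 0% called.

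Healthy animals at 34 days were set against those before therapy as well, and the difference of NORA_34d from NORA_T0 was 0.34 for miR-27a (95% CI -0.13 to 0.81, adjusted p 0.790). All 5 members lay above 0 in that comparison, by 0.06 to 0.34, where the median of all tested miRNAs was 0.12, and 0 were called, where 0.952% of all miRNAs were. NORA_1h differed from NORA_T0 by -0.11 to 0.13, with 0 members called and 2.38% of all miRNAs.

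Whether the AP arm changed by more than healthy animals over the same 34 days was tested as the difference of both changes. It was 0.59 for miR-23a (95% CI -0.21 to 1.39, adjusted p 0.466), 0.61 for miR-24 (95% CI -0.12 to 1.34, adjusted p 0.465) and 0.37 for miR-27a (95% CI -0.29 to 1.03, adjusted p 0.541). No member was called and 0.476% of all miRNAs were, so a larger change in the AP arm was not detectable with 2 arrays a group.

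**Figure D4:**
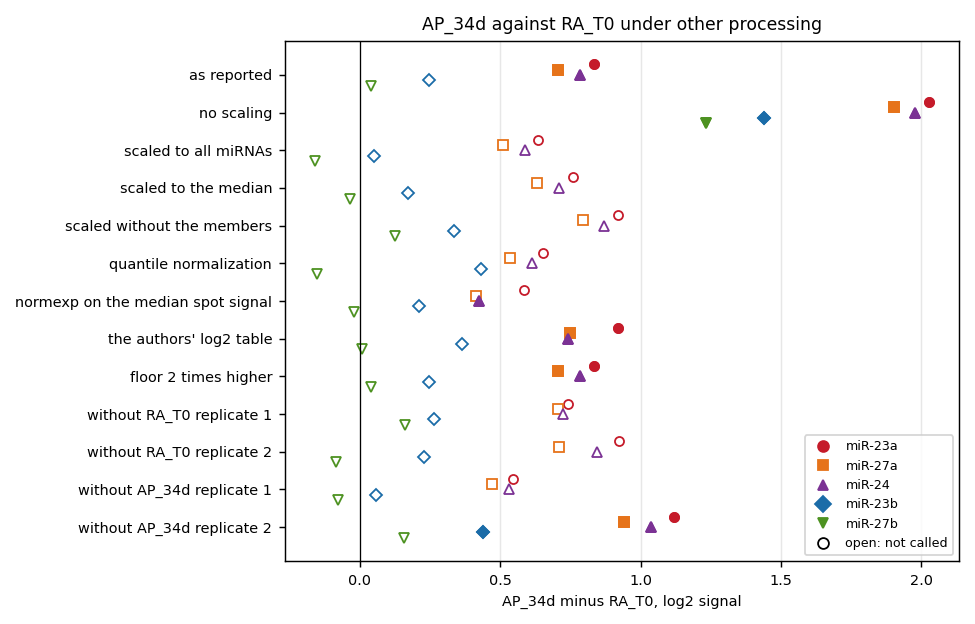
Difference of AP_34d from RA_T0 in log2 signal (x axis) for the 5 members (marker shapes) as reported and under 12 other settings (y axis), filled where the adjusted p was under 0.05 and open where it was not. MiR-23a, miR-27a and miR-24 stay right of miR-23b and miR-27b in every setting but are filled in only some, and without scaling all 5 are filled.

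The likeness of group profiles was described by Pearson's r of the 12 group means over the 132 miRNAs detected on all arrays. The profiles closest to miR-23a were those of miR-24 (0.99), miR-181d (0.98) and miR-151 (0.98), and those closest to miR-24 were miR-23a (0.99), miR-326 (0.99) and miR-181d (0.98). MiR-27a was closest to miR-488 (0.96), miR-350 (0.95) and miR-23a (0.95). The 12 points share arrays and scale factors, so these are descriptions only.

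The miR-23b cluster members had other neighbours. MiR-23b was closest to let-7a (0.93), miR-30d (0.92) and let-7f (0.89), and miR-27b to miR-140* (0.88), let-7c (0.87) and let-7f (0.86). Between paralogues r was 0.68 for miR-23a with miR-23b and 0.25 for miR-27a with miR-27b. Within the clusters it was 0.95 for miR-23a with miR-27a and 0.67 for miR-23b with miR-27b. By closeness miR-27a ranked 12 for miR-23a, and miR-23a ranked 3 for miR-27a. MiR-27b ranked 28 for miR-23b, and miR-23b ranked 15 for miR-27b, so other miRNAs were closer in each case. The profile of miR-24, the strand of both loci, had an r of 0.65 with miR-23b and 0.06 with miR-27b. MiR-24-2* had an r of 0.94 with miR-27a, 0.86 with miR-23a and 0.83 with miR-24, the other strand of its hairpin. With miR-23b it had 0.52 and with miR-27b 0.23.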

How the data were processed

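PBMC RNA was labelled with an Agilent kit per the labels, and scans were read with Feature Extraction 10.7.3.1 per the file headers. What the authors deposited per array is linear intensity, background-corrected but not normalised between arrays, as a total signal and a detection flag per miRNA. The authors' processed log2 values, whose normalisation is not given in the sources used here, served as an alternative. Total signals were scaled to equal 75th percentiles over 132 miRNAs detected on all 24 arrays (factors 0.452 to 1.42), raised to a floor of 5.76 and taken to log2. MiRNAs detected on 3 or more arrays, 210 in all, entered limma 3.58.1 in R 4.3.3, as 12 group means with 12 degrees of freedom left for the spread. All tests are two-sided, and p-values were adjusted (Benjamini-Hochberg) over the 210 in each of 19 comparisons. The code was tested on simulated data. Precision is limited by 2 arrays per group, and p-values measure the spread between those samples. The rule for the members uses names alone, but the members and lists were picked for study with earlier results of these data known. Named were the 5 members, their 6 passenger strands, for each member the 3 closest profiles, and those of the lists that were called beside a member (at most 4). Alternatives covered scaling, background, filter, floor, replicate block, the arrays fitted, the threshold of the study and the removal of single arrays.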

Additional observations from a re-analysis of the deposited data

How the results depend on the processing

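For the number of members called in AP_34d against RA_T0, 3 as reported, the count was 5 without scaling, 1 after normexp background correction, and 0 when scaled to all miRNAs, to the median or without the members (the last chosen after seeing the data), after quantile normalization, without a filter, with only the arrays compared, or by the study's threshold, and 0 to 4 on leaving out 1 array. Over all miRNAs that comparison called 40 as reported and 0 to 132 under the alternatives (59 after normexp, 70 in the authors' log2 table, 65 of the 132 miRNAs detected on all arrays, and 103 without the second AP_34d array), and without scaling the median of all miRNAs moved from 0.16 to 1.32. In AP_34d against PLA_34d, 0 as reported, 5 members were called without scaling, 3 without a filter, and 0 to 4 on leaving out 1 array, and in AP_1h against RA_T0 0 to 1. Over all miRNAs AP_34d against PLA_34d called 0 as reported, 124 without scaling, 36 among those detected on all arrays, 412 without a filter and 91 without the second AP_34d array. Of the counts of members called, 247 values under these alternatives were as reported or near it, and 11 moved further. The cause of these changes was not tested, beyond the 677 miRNAs tested without a filter and the fewer arrays of the smaller fits.

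MiR-27b, whose differences lie near 0, turned sign most. In AP_34d against RA_T0 it was -0.16 scaled to all miRNAs, -0.034 scaled to the median, -0.15 after quantile normalization, -0.019 after normexp, and -0.083 to 0.16 on leaving out 1 array. In ANE_1h against RA_T0 it was -0.11, -0.075, -0.084 and -0.032 in the same order, -0.047 in the authors' log2 table, and -0.12 to 0.13 on leaving out 1 array. In AP_34d against PLA_34d it was 1.03 without scaling, 0.13 scaled without the members, and -0.13 to 0.11 on leaving out 1 array, and in AP_1h against RA_T0 0.57 without scaling and -0.65 to 0.00073 on leaving out 1 array. Scaled to all miRNAs, miR-23b in AP_34d against PLA_34d was -0.025, and the AP-minus-NORA change of miR-27a was -0.10. The ratio of miR-23a to miR-23b in AP_34d against RA_T0 moved to 0.22 after quantile normalization and 0.37 after normexp, and in AP_34d against PLA_34d to 0.23 after quantile normalization. That of miR-27a to miR-27b in AP_34d against PLA_34d moved to 0.32 and 0.31.

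With the replicate number as a block (replicate block), 3 members were called in AP_34d against RA_T0 at adjusted p of 0.0338 to 0.0375, and 61 miRNAs in all where 40 were called without it. No call among the members changed. Over 66 pairs of groups the deviations of same-numbered arrays correlated between -0.77 and 0.85, with a median of -0.03 and 26 above 0.1. No steady pairing of the samples by these numbers was seen. The slide could not be fitted as a block, since each group lay on 1 slide. Depth is not defined for arrays, and 2 arrays a group limit the precision.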
